A study of Mus musculus with 10 samples.

Results

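The isoforms described here are the long-read transcripts of mature mouse thymocytes that had more than 1 exon and carried every splice junction of an annotated transcript, in the same order and with none added. They were taken as the rows classed as full splice match with at least 2 exons in the isoform table of each lineage. The CD8 single-positive (CD8SP) library held 527 of them among 9476 isoforms, and the CD4 single-positive (CD4SP) library held 397 among 8289, which makes 924 of 17765 in all. The exon number equalled that of the named reference in 924 of 924, and 923 of 924 had only canonical splice sites. CD8SP cells were sorted as CD8+CD4-TCRbeta+CD24- after magnetic removal of CD4-bearing cells, and CD4SP cells as CD4+CD8-TCRbeta+CD24- after removal of CD8-bearing cells. All came from thymi of C57BL/6 mice of 6 to 8 weeks, with 2 to 3 thymi pooled per sample. The series has 10 samples, 1 long-read PacBio library and 4 short-read lanes per lineage, and the lanes of a lineage are given as 1 pooled value. The study asked how splicing differs between the lineages. With 1 library per lineage, a difference between lineages cannot be told apart from a difference between libraries.

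An mRNA is defined by its start, its chain of introns and its polyadenylated end. A full splice match fixes the chain of introns only, so its ends can lie inside or outside those of the reference. The annotation gives each reference a type: protein_coding models carry a reading frame, retained_intron models keep intron sequence of a coding gene and have none assigned, and processed_transcript models have no assigned frame. A stop codon well upstream of the last exon junction is known to mark an mRNA for nonsense-mediated decay (NMD). In T cells, alternative splicing is known to shape surface proteins and signalling, the phosphatase CD45 being the textbook case.

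Among genes matched by more than 1 coding reference, 10 had references that differed by a coding segment lying wholly inside the reading frame. These segments are coding sequence that some of a gene's matched references hold and others lack, and 8 segments of 7 of these genes are shown 5′ to 3′ on the transcribed strand, from the GENCODE M21 transcripts (GRCm38). Lower case is used throughout, and where a segment is given with 20 bases of the transcript on each side, the segment is in capitals.
Ptprc-203, exon 4 of 30, absent from Ptprc-204, chr1:138116954-138117025, minus strand: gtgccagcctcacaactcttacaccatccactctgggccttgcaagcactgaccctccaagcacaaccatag
Bcl11b-201, exon 3 of 4, absent from Bcl11b-203, chr12:107965672-107965887, minus strand: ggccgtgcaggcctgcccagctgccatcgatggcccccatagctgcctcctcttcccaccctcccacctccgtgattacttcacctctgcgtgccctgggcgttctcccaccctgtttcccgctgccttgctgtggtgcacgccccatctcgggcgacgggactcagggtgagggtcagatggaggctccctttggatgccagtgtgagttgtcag
Ppp2r5c-201 and Ppp2r5c-204, absent from Ppp2r5c-202, chr12:110574745-110574861, plus strand: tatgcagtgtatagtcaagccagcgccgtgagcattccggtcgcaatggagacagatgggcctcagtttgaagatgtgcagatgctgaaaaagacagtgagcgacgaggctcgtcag
Tle3-202 and Tle3-217, absent from Tle3-201 and Tle3-215, chr9:61409408-61409416, plus strand: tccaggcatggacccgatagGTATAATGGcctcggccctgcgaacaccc
Tle3-215 and Tle3-217, absent from Tle3-201 and Tle3-202, chr9:61410121-61410135, plus strand: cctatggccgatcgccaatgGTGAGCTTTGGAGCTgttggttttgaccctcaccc
Ing3-201, absent from Ing3-202, chr6:21968885-21968917, plus strand: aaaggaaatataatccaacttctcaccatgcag
Mgat4a-201, absent from Mgat4a-206, chr1:37498573-37498599, minus strand: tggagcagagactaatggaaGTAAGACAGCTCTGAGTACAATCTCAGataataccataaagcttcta
Txnip-202, absent from Txnip-201, chr3:96558889-96558891, plus strand: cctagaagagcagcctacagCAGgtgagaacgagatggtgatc
Every segment shown is a multiple of 3 bases long, so the reading frame continues on its far side. Which library held which form is given with each gene below.

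The members made up 5.56% (95% exact binomial interval 5.11 to 6.04) of CD8SP isoforms and 4.79% (4.34 to 5.27) of CD4SP isoforms. The difference of 0.77 percentage points had an adjusted p of 0.0993 in Fisher's exact test. All tests of shares between lineages are 2-sided Fisher's exact tests adjusted over 14 shares by the Benjamini-Hochberg method. They and the intervals cover counting error between 2 libraries, and isoforms of the same gene are not independent. No column gives the reads behind an isoform, so each counted once and the depth is unknown. Of the coreceptor genes, a full match of Cd8b1 was found in CD8SP and one of Cd4 in CD4SP, as labelled, and Cd8a had no member. Among other lineage markers, Zbtb7b had no member, and Runx3 had 3 in CD8SP and 1 in CD4SP. Of 19 markers of antigen-presenting, B, erythroid and stromal cells, 0 had a member and 2 had any long-read isoform.

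Coding models and intron-holding models made up most of the matched references. Protein_coding models were matched by 359 of 527 members (68.1%) in CD8SP and by 232 of 397 (58.4%) in CD4SP, 9.68 points more in CD8SP (adjusted p = 0.0405, Fisher's exact test). Retained_intron models were matched by 129 (24.5%, 20.9 to 28.4) in CD8SP and 130 (32.7%, 28.1 to 37.6) in CD4SP, 8.27 points fewer in CD8SP (adjusted p = 0.0434, Fisher's exact test). These shares by type are among the 8 that were added after the data were seen, and none of the other 6 passed. With 1 isoform per gene the retained_intron difference was 10.8 points (adjusted p = 0.0128, Fisher's exact test). Isoform length also differed between the libraries, with medians of 2417 bases in CD8SP and 2717 in CD4SP for the members, and 2597 and 2882 for all isoforms, and its part in these shares was not tested. Processed_transcript models took 26 members in each library, and models annotated as NMD targets took 3 in CD8SP and 2 in CD4SP. Antisense models took 6 members in CD8SP and 5 in CD4SP, mostly of Tug1, a long noncoding RNA gene. Trac-202, a model of the T cell receptor alpha constant gene, had 1 member in CD8SP.

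The type of the reference went with the number of exons. Among members with 2 exons, 62.5% of 112 in CD8SP and 69.5% of 105 in CD4SP matched retained_intron models. Among those with over 10 exons, 97.3% of 146 in CD8SP and 99.0% of 100 in CD4SP matched protein_coding models. The longest chains were 37 exons in Clasp1-203 of the microtubule-binding protein CLASP1, in CD8SP, and 31 exons in both libraries for Itgal-202 of the integrin chain LFA-1 alpha and Esyt1-201. Nckap1l-201, a subunit of the actin-regulating WAVE complex, had 31 exons in 3 CD8SP isoforms of 3707, 3849 and 4722 bases.

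**Figure D1:**
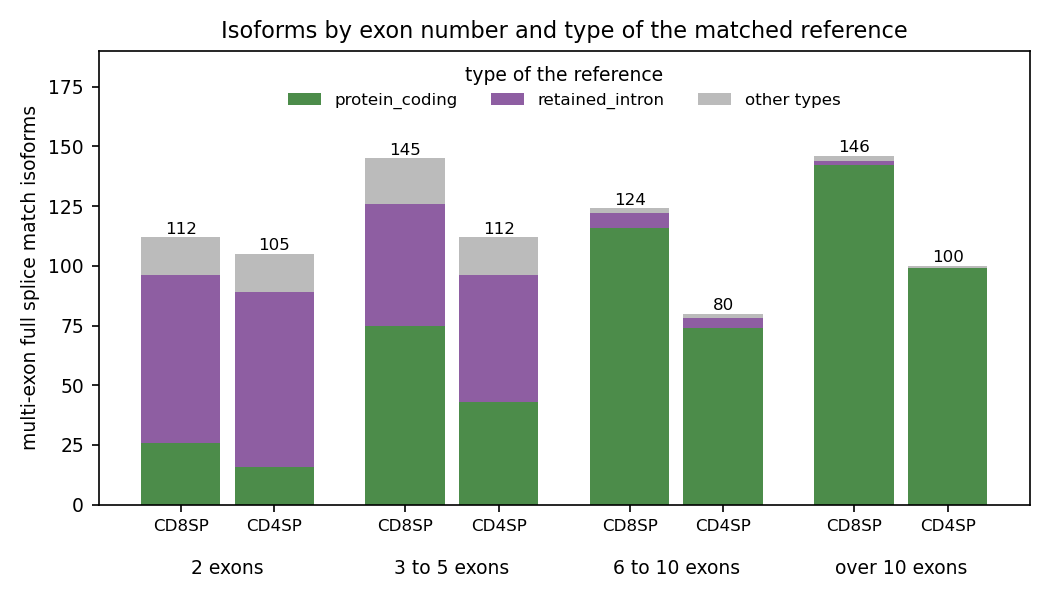
Number of multi-exon full splice match isoforms (vertical axis) by number of exons, for CD8SP (left bar of each pair) and CD4SP (right bar), with colours for the annotated type of the matched reference and the total above each bar. Retained_intron models fill most of the 2-exon bars (62.5% and 69.5%) and almost none of the bars over 10 exons (1.37% and 0%).

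Members that matched intron-holding models were several times longer than those models. The matched retained_intron references had a median length of 808 bases in CD8SP and 811.5 in CD4SP, and the isoforms 2671 and 2879. At least 1 whole intron of a coding transcript lay inside an exon of 61 of 129 such members in CD8SP and 59 of 130 in CD4SP, against 24 of 359 and 21 of 232 for protein_coding models. Over all members placed on the annotation the share was 17.3% of 526 in CD8SP and 21.8% of 395 in CD4SP (adjusted p = 0.214, Fisher's exact test). Dgat1-208, of an enzyme that makes triglycerides, held 13 annotated introns in a CD4SP isoform of 5559 bases with 3 exons, where the reference has 564 bases. Alternative forms of an intron are counted separately here. H2-K1-209 of the class I antigen-presenting molecule H2-K held 7, in isoforms of 2517 bases in CD8SP and 2522 in CD4SP. Cd3d-203, a 2-exon model of the CD3 delta chain of the T cell receptor, was extended by 2308 bases at its 5′ end and held 3 introns in CD8SP, and CD4SP had no isoform of the gene. Cd3e-203 of the CD3 epsilon chain had 4 exons and 2971 bases in CD8SP and 2974 in CD4SP for a reference of 517 bases.

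Few members ended where the reference ends at both sides. The 5′ end lay within 50 bases of the reference start in 25.4% (21.8 to 29.4) of CD8SP and 25.7% (21.5 to 30.3) of CD4SP members (adjusted p = 0.939, Fisher's exact test). The 3′ end lay within 50 bases of the reference end in 46.5% (42.2 to 50.9) and 39.8% (35.0 to 44.8), 6.69 points more in CD8SP (adjusted p = 0.156, Fisher's exact test). Both ends did so in 63 of 527 CD8SP and 51 of 397 CD4SP members. Set against any annotated end of the same gene, 73.6% of CD8SP and 73.1% of CD4SP members had their 3′ end within 50 bases, at median distances of 6 and 5 bases. At the 5′ side 45.2% and 44.3% lay within 50 bases of any annotated start.

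The direction of the end differences depended on the type of reference. Protein_coding members were more often shorter than longer at the 5′ end: 203 of 359 in CD8SP and 108 of 232 in CD4SP were shorter by over 50 bases, and 46 in each library were longer. Retained_intron members ran the other way, with 98 of 129 in CD8SP and 100 of 130 in CD4SP extended by over 50 bases at the 5′ end, and 74 and 89 at the 3′ end. Their median 5′ extension was 839 bases in CD8SP and 980 in CD4SP.

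**Figure D2:**
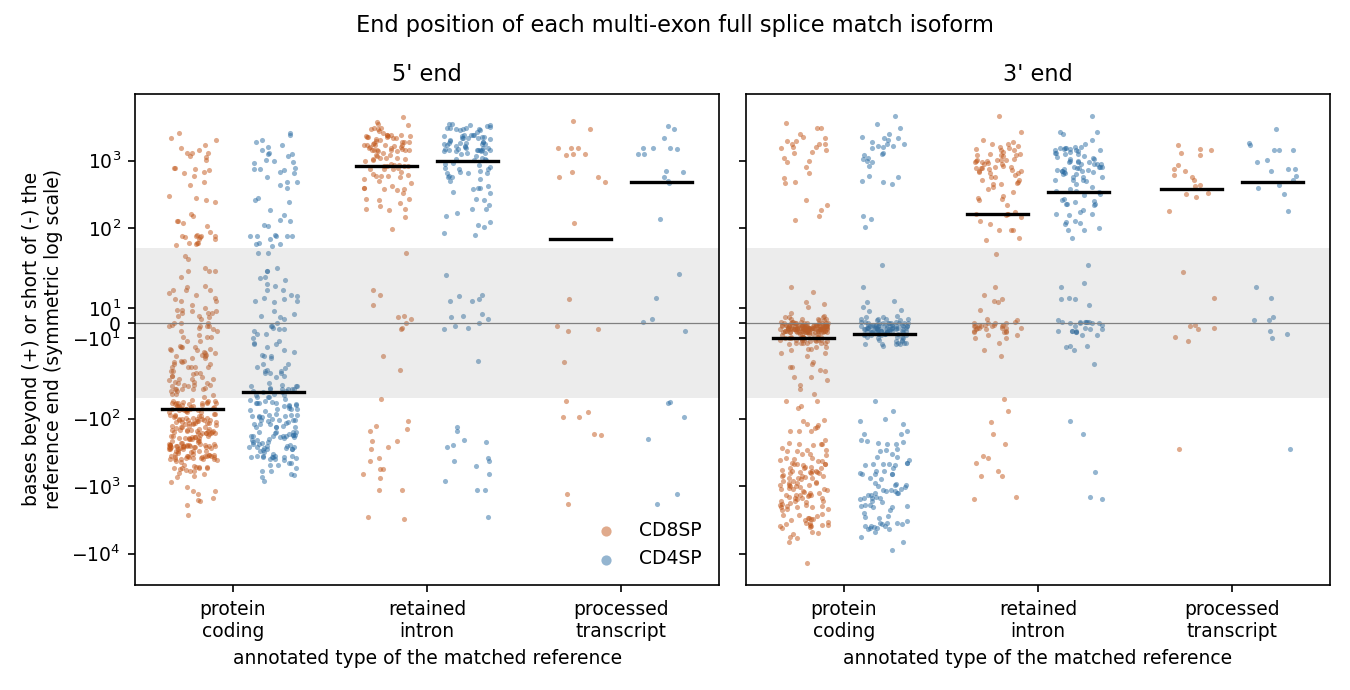
Distance in bases of each isoform's 5′ end (left panel) and 3′ end (right panel) from the end of its reference on a symmetric log scale, by type of the reference, with CD8SP left of CD4SP. Points are isoforms, bars are medians and the grey band is 50 bases either side. Protein_coding 3′ ends cluster at 0 with a tail of shorter forms, and most retained_intron members lie above 0 at the 5′ end, with median 5′ extensions of 839 and 980 bases.

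The largest 5′ extension was 4440 bases, in a CD8SP isoform of Rwdd1-202, a retained_intron model of 397 bases. Rexo4-209 (3865 bases, CD8SP), Ylpm1-205 (3696, CD8SP), Utp20-203 (3490 in CD8SP and 3463 in CD4SP) and Cbwd1-202 (3452, CD4SP) followed. The largest 5′ shortening was 3091 bases in Cmip-204 in CD8SP, before Krit1-208 (2854 in CD8SP and 2858 in CD4SP) and Satb1-211 (2672, CD8SP). Satb1 encodes a chromatin organiser of developing T cells, and its isoform kept the annotated frame of 764 codons and ended before a window of 85% A. At the 3′ end the largest extension was 4628 bases in Ldha-206 of lactate dehydrogenase in CD4SP. Tnfrsf14-205, of the receptor HVEM, ended 3599 bases beyond its reference in CD8SP, and the nearest annotated end of the gene was as far away. The largest 3′ shortening was 13795 bases in Strbp-201 in CD8SP, an isoform of 2497 bases and 17 exons for a reference of 16348 bases. Igf1r-201 of the IGF-1 receptor stopped 6699 bases short in CD8SP and 6734 in CD4SP, and Ncl-201 of nucleolin 5778 bases short in each.

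Ends away from those of the matched reference recurred in the other library. Many of them lay at other annotated ends. Of 3′ ends over 50 bases from the reference end, 143 of 282 in CD8SP and 132 of 239 in CD4SP were within 50 bases of another end of the gene. At the 5′ side these were 104 of 393 and 74 of 295. For the 197 references matched in both, the closest pair of isoforms had 5′ ends within 50 bases in 193, 3′ ends in 184 and both in 180 (91.4%), with a median distance of 2 bases at each end. Of 157 references whose closest pair lay over 50 bases from the reference start, 154 had 5′ ends within 50 bases of each other. The same held for 96 of 99 at the 3′ end. Tra2b-201, of a splicing regulator, was 2607 bases longer at the 5′ end in an isoform of 3962 bases in CD8SP and in one of the same length in CD4SP. Psmb8-201, of an immunoproteasome subunit, was 589 bases shorter at the 5′ end in each. The closest pair was taken out of all pairs, so these counts describe the best agreement, and the isoform tables of both lineages were made with the same annotation.

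A polyadenylation signal preceded most 3′ ends. AATAAA or ATTAAA, read on the sense strand, lay in the last 50 bases of 363 of 473 CD8SP members (76.7%, 72.7 to 80.5) and 275 of 346 CD4SP members (79.5%, 74.8 to 83.6). The letters came from GENCODE M21 transcripts that cover the end, and 54 CD8SP and 51 CD4SP members had no such window. Among all multi-exon protein_coding ends of the annotation the share was 62.9%, and among members of protein_coding models 75.9% in CD8SP and 76.7% in CD4SP. On the opposite strand of the windows of all members the share was 12.1% in CD8SP and 14.2% in CD4SP. Ends extended by over 50 bases had it in 88.6% and 90.7%, and ends shorter by over 50 bases in 62.0% and 63.6%. The members without a window fell unevenly on these classes. A window was read for 88 of 124 extended ends in CD8SP and 107 of 140 in CD4SP, and for all 158 and 99 shorter ends. The extended ends counted are therefore those inside another annotated transcript. Members followed by an A-rich genomic window, with at least 60% A, had it in 7 of 46 in CD8SP and 5 of 21 in CD4SP. The remaining members had it in 83.4% and 83.1%. A match is a description of the letters and not of a used site.

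**Figure D3:**
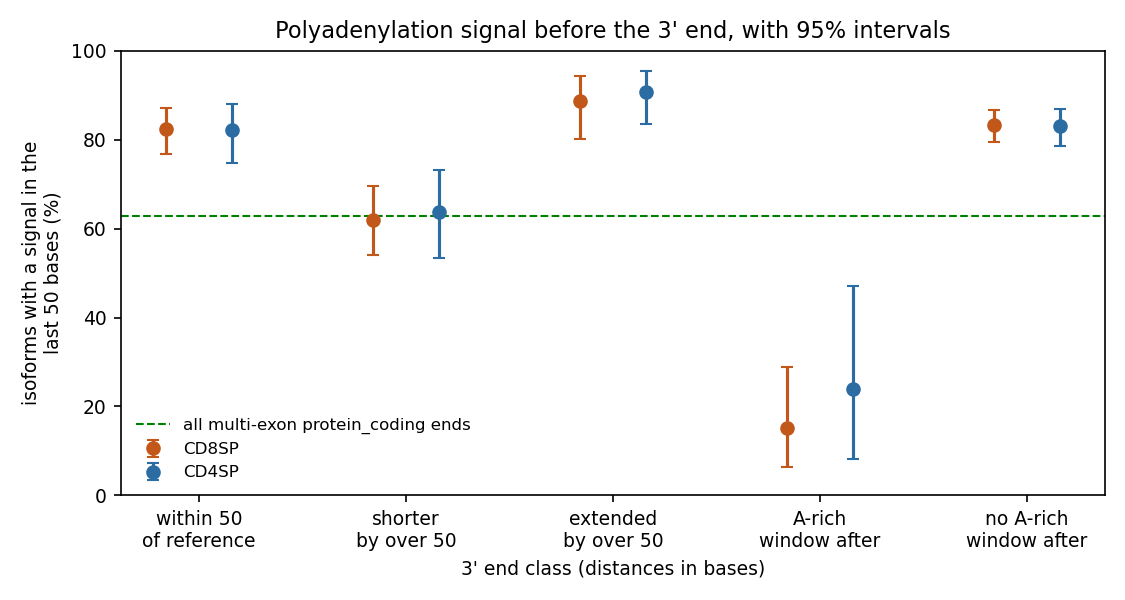
Percent of isoforms with AATAAA or ATTAAA in the last 50 bases (vertical axis) by class of the 3′ end, for CD8SP (left of each pair) and CD4SP, with exact 95% binomial intervals; the dashed line is the share over all annotated multi-exon protein_coding ends, 62.9%. Members before an A-rich window stand lowest at 15.2% and 23.8%. Only ends covered by an annotated transcript are counted, which for extended ends are 88 of 124 in CD8SP and 107 of 140 in CD4SP.

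An A-rich window after the 3′ end, where the cDNA primer can start inside a transcript, followed 59 members (11.2%, 8.63 to 14.2) in CD8SP and 37 (9.32%, 6.65 to 12.6) in CD4SP (adjusted p = 0.598, Fisher's exact test). In CD4SP this was less than in multi-exon incomplete splice matches, which carry a part of a reference's junctions: 9.32% against 18.2% of 1037 (adjusted over 8 within-library shares, p = 0.000181, Fisher's exact test). In CD8SP it was 11.2% against 15.1% of 1402 (adjusted p = 0.0731, Fisher's exact test). Bcl11b, which encodes a transcription factor needed for T cell commitment, had all 4 of its members before windows of 80% A in CD8SP and 90% in CD4SP. Its Bcl11b-201 isoforms stopped 4823 bases short of the reference in CD8SP and 4820 in CD4SP, within 4 and 1 bases of another annotated end.

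Most members had a predicted reading frame. Coding isoforms numbered 455 of 527 (86.3%, 83.1 to 89.2) in CD8SP and 328 of 397 (82.6%, 78.5 to 86.2) in CD4SP (adjusted p = 0.278, Fisher's exact test). For protein_coding models the share was 98.1% in CD8SP and 98.3% in CD4SP, and for retained_intron models 62.8% and 60.8%. Incomplete matches were coding in 84.3% in CD8SP (adjusted p = 0.367) and 81.7% in CD4SP (adjusted p = 0.702, both Fisher's exact test). Among coding members of models with a complete annotated frame, the predicted frame was within 3 bases of the annotated length in 271 of 346 (78.3%, 73.6 to 82.6) in CD8SP and 184 of 221 (83.3%, 77.7 to 87.9) in CD4SP, the stop codon making the difference of 3. It was shorter in 69 in CD8SP and 30 in CD4SP, of which 58 and 22 had a 5′ end shorter by over 50 bases. It was longer in 6 and 7.

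The isoforms with the shortest frames relative to the annotation lacked 5′ sequence. Frames were compared by length alone, and whether a shorter predicted frame lies within the annotated one was not tested. For Cmpk2-201, of a mitochondrial nucleotide kinase, the predicted frame had 8.28% of the annotated length in a CD8SP isoform. That isoform lacked 356 bases at the 5′ end and 901 at the 3′ end. Bst2-201 of the antiviral protein tetherin had a frame of 10.5% of the annotated length in CD8SP and lacked 145 bases at the 5′ end. Pfn1-201 of the actin-binding protein profilin had 40.0% of the annotated frame length in CD8SP with 219 bases missing. Ube2k-201 of a ubiquitin-conjugating enzyme had 49.0% of it in a CD8SP isoform and in 2 CD4SP isoforms, each lacking 256 bases at the 5′ end. Cd164-201 of a sialomucin had 75.6% of the annotated length in CD8SP, where 97 bases were missing, and in CD4SP, where 90 were.

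Predicted NMD was called in 41 of 455 coding members (9.01%, 6.54 to 12.0) in CD8SP and 31 of 328 (9.45%, 6.51 to 13.2) in CD4SP (adjusted p = 0.939, Fisher's exact test). Incomplete matches had it in 5.75% in CD8SP (adjusted p = 0.0731) and 6.38% in CD4SP (adjusted p = 0.157, both Fisher's exact test). The calls fell on references of 43 genes, 17 references in both libraries, 18 in CD8SP only and 10 in CD4SP only. Over all 610 matched references the split was 197 in both, 265 in CD8SP only and 148 in CD4SP only. Retained_intron models carried 20 of the 41 calls in CD8SP and 18 of the 31 in CD4SP, most of them with 2 exons (15 and 14). Protein_coding models carried 15 and 9, and 11 and 8 of these had a frame within 3 bases of the annotated length, so that the call applied to the annotated stop codon. Models annotated as NMD targets carried 2 and 1 of the calls.

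The NMD calls named here are some of those of the highest gene FPKM and some of the 2-exon models called in both libraries. Mbnl1-207, of the splicing factor muscleblind, was called in both libraries, in isoforms of 4175 bases in CD8SP and 4172 in CD4SP, and the gene stood at 217.2 FPKM in CD8SP and 189.6 in CD4SP. FPKM are short-read fragments per kilobase of transcript, scaled to all mapped fragments, and a gene's value sums the spliced transcripts that share introns with that gene alone, so it is not the level of the called form. This sum was below the matched chains of the same gene for 1 of 424 member genes in CD8SP (Il2rg) and 3 of 312 in CD4SP (Gpbp1, Rpl13a and Shkbp1). Pabpc1-201 of the cytoplasmic poly(A)-binding protein was called in 3 CD8SP isoforms of 2373, 2534 and 2755 bases, of which the first pair ended before windows of 75% A. Lef1-201, of a transcription factor of thymocyte development, was called in CD8SP with a frame of 377 codons and 1029 bases missing at the 5′ end. Cd5-201 of the inhibitory receptor CD5 was called in CD4SP with its annotated frame of 494 codons. Ppp2r5c-204 was called in all of its members, 1 in CD8SP and 2 in CD4SP. Ybx1-206, Utp20-203, Ing4-206, Dnajc11-203 and Gnai2-206 were further models called in both libraries, each with 2 exons.

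A few genes had more than 1 matched reference. They numbered 31 of 424 genes (7.31%, 5.02 to 10.2) in CD8SP and 27 of 312 (8.65%, 5.78 to 12.3) in CD4SP, of which 17 were shared. Over both libraries together there were 48 such genes, 18 of them with at least 2 protein_coding references. In 7 genes each library held a single but different reference.

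Ppp2r5c, which encodes a regulatory B subunit of the phosphatase PP2A (chromosome 12, 110447120 to 110583062, GRCm38), had the most members, 12 in CD8SP and 14 in CD4SP, over 4 coding references. Ppp2r5c-201 and Ppp2r5c-204, which hold the 117-base exon shown above, had 5 members in CD8SP and 6 in CD4SP. Ppp2r5c-202, which lacks it, had 4 in CD8SP and 6 in CD4SP. Ppp2r5c-205, which ends in an upstream terminal exon, had 3 in CD8SP and 2 in CD4SP. Lengths of Ppp2r5c-201 members were 3211, 3717, 3867 and 4179 bases in CD8SP and 3196, 3702, 3945 and 4178 in CD4SP, for a reference of 1847. The series of 3′ ends largely coincided: 9 of 12 CD8SP members had a CD4SP member of the same reference with a 3′ end within 50 bases, and 9 of 14 the reverse. In short reads Ppp2r5c-202 stood at 12.6 FPKM in CD8SP and 11.2 in CD4SP, Ppp2r5c-205 at 9.42 and 11.8, and Ppp2r5c-201 at 7.98 and 6.29.

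**Figure D4:**
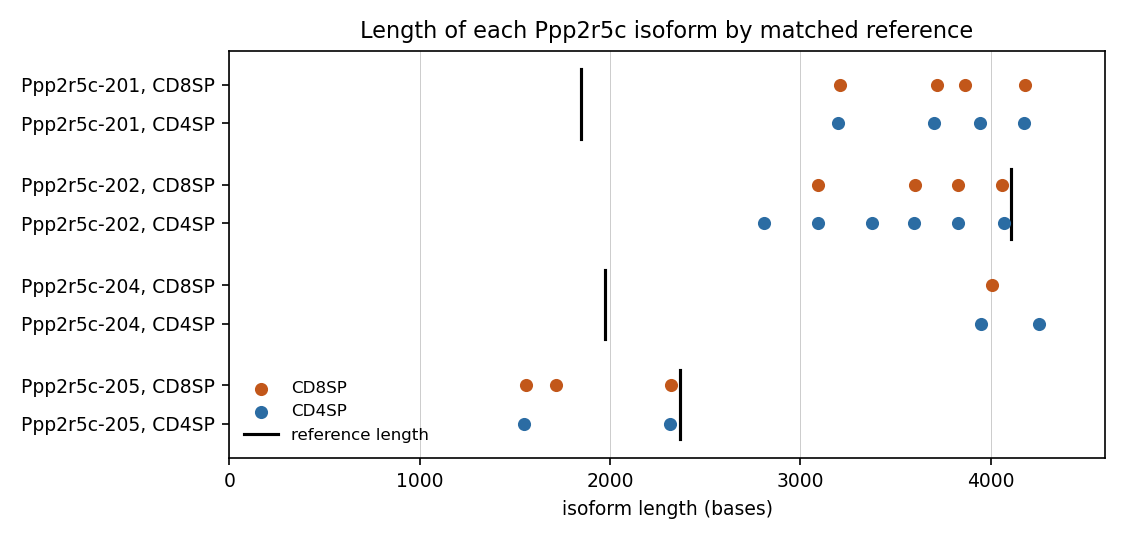
Length in bases of each Ppp2r5c isoform (points, horizontal axis) by matched reference, CD8SP above CD4SP in each pair, with the reference length as a vertical line. Members of Ppp2r5c-201 span 3211 to 4179 bases in CD8SP and 3196 to 4178 in CD4SP, all beyond the reference of 1847.

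The other genes with alternative coding segments differed in how the forms fell between libraries. Ptprc encodes CD45 (chromosome 1, 138062861 to 138175708), and both of its full matches came from CD4SP: Ptprc-203 with 30 exons and 4684 bases and Ptprc-204, without the 72-base exon, with 29 exons and 4599 bases. CD8SP held 7 isoforms of Ptprc and none of them was a full match. Short reads listed both forms in both lineages, with Ptprc-203 at 185.2 FPKM in CD8SP against 182.0 in CD4SP, and Ptprc-204 at 47.9 against 50.2. Bcl11b-201 and Bcl11b-203 each had 1 member per library. The form with the 216-base exon, Bcl11b-201, was at 4.05 FPKM in CD8SP against 28.2 in CD4SP, and the form without it at 20.8 and 18.2. With 1 pooled value per lineage these differences have no replicate check.

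Tle3, a corepressor gene of the Groucho family, had 4 coding references that combine the 9-base and 15-base segments. Tle3-215, with the longer segment only, had 1 member in CD8SP and 2 in CD4SP. Tle3-201, with neither, Tle3-202, with the shorter only, and Tle3-217, with both, had 1 each in CD4SP. Txnip, a glucose-responsive arrestin gene, had Txnip-202, with 3 more coding bases, in CD8SP and Txnip-201 in CD4SP, with frames of 395 and 394 codons. Both Txnip forms were listed in short reads of both lineages: Txnip-202 at 62.1 FPKM in CD8SP and 53.6 in CD4SP, and Txnip-201 at 39.0 and 11.7. Mgat4a, which encodes a glycan-branching enzyme, had both forms in CD8SP only. Ing3-201 had 3 members in each library and Ing3-202, 33 bases shorter in the frame, 1 in CD8SP.

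Noncoding models gave several references too. Tug1 had 6 members in CD8SP and 4 in CD4SP over 2 references, from 2116 to 5120 bases long, and 4 of the 6 and 4 of the 4 had a partner in the other library with a 3′ end within 10 bases. Nol7, Rexo4 and H2-K1 had 3 references each, made up of intron-holding or processed_transcript models in Nol7 and Rexo4. Gtf2a1, of the general transcription factor TFIIA, had a single reference, Gtf2a1-201, in 5 isoforms per library. They spanned 1508 to 2712 bases in CD8SP and 1505 to 5042 in CD4SP, all with the annotated frame of 378 codons. Kars, which encodes lysyl-tRNA synthetase, had Kars-201 and Kars-202 in both libraries and Kars-203 in CD8SP, with frames of 595 codons for the first and 622 for the others.

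Of 610 references over both libraries, 197 were matched in both, 265 in CD8SP only and 148 in CD4SP only. Set against the 462 references of CD8SP and the 345 of CD4SP, the shared ones were 42.6% of the CD8SP and 57.1% of the CD4SP list. Of 424 genes in CD8SP and 312 in CD4SP, 186 were in both, 43.9% and 59.6%. Genes with any long-read isoform numbered 3584 in CD8SP, 3015 in CD4SP and 4310 in either library. By these totals the lists of all genes overlapped in part, and in a larger part than the member lists, where 186 of 550 genes were shared. No such total was taken for references. Of the 550 genes with a member in either library, 284 had a multi-exon isoform in both libraries. A member in both was found for 185 of these 284 (65.1%). Retained_intron references were shared in 56.9% of the CD8SP and 55.5% of the CD4SP list, and protein_coding ones in 36.2% and 58.2%. For the 265 references of CD8SP only, CD4SP held an incomplete match of the same reference in 17, a full match to another reference of the gene in 23, some other isoform of the gene in 71 and no isoform of the gene in 154. For the 148 of CD4SP only, CD8SP held these in 14, 19, 55 and 60.

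Short-read levels were set beside the library in which a gene's members were found, and the shares past 2-fold are given beside those over all genes. Among the 9565 genes that reached 1 FPKM in at least 1 lineage, 10.8% were at least 2-fold higher and 6.23% at least 2-fold lower in CD8SP, and the median log2 ratio of CD8SP to CD4SP (FPKM + 0.1) was 0.21. Genes with members in CD8SP only had a median of 0.31, and 30 of 230 (13.0%) were higher and 5 lower in CD8SP. Genes with members in CD4SP only had a median of 0.13, and 4 of 119 (3.36%) were lower and 9 higher in CD8SP. Genes with members in both had a median of 0.12, with 9 of 171 higher and 4 lower. Scaled to a median ratio of 0, the split over all genes was 756 higher to 764 lower, and it was 20 to 5, 6 to 4 and 5 to 4 in the sets of CD8SP only, CD4SP only and both. The genes far from the medians included the coreceptors: Cd8b1, of the CD8SP-only set, had a gene FPKM of 504.5 in CD8SP and 32.9 in CD4SP (log2 ratio 3.93), and Cd4, of the CD4SP-only set, 1.69 and 107.1 (log2 ratio -5.90). Itm2a, also of the CD4SP-only set, had 16.1 in CD8SP and 148.1 in CD4SP. No test is given, since each lineage has 1 value.

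**Figure D5:**
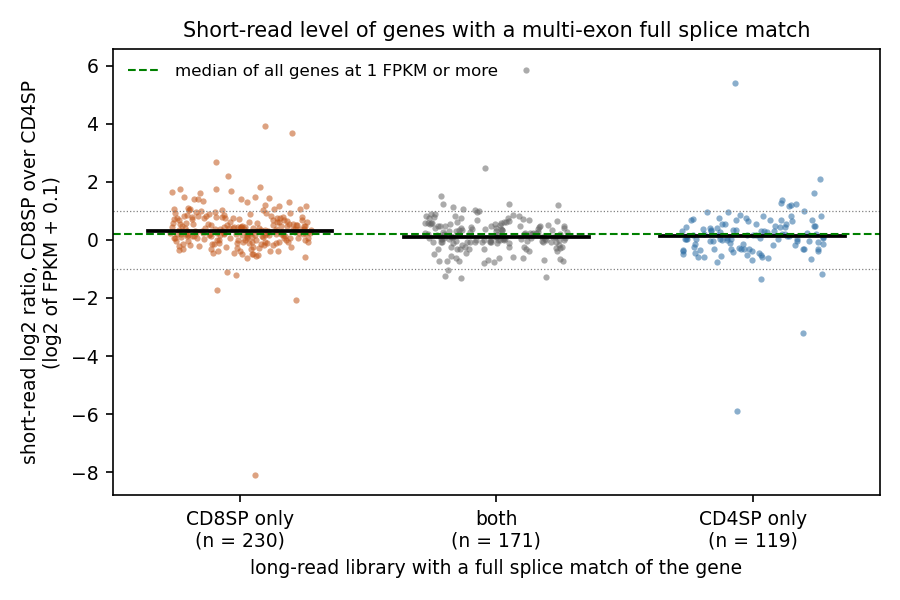
Short-read log2 ratio of CD8SP over CD4SP (FPKM + 0.1, vertical axis) for each gene with a multi-exon full splice match, by the long-read library that held it; points are genes, bars are medians, dotted lines are 2-fold and the dashed line is the median over all genes at 1 FPKM or more. The medians of 0.31, 0.12 and 0.13 lie close to the dashed line at 0.21.

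Reference transcripts were compared in the same way. Over 9518 annotated intron chains at 1 FPKM or more, 17.0% were at least 2-fold higher and 7.65% at least 2-fold lower in CD8SP, with a median of 0.32. Those matched in CD8SP only had a median of 0.47 with 32 of 166 (19.3%) higher and 5 lower. Those of CD4SP only had 0.29 with 4 of 59 (6.78%) lower and 5 higher, and those of both 0.27 with 10 of 92 higher and 10 lower. After scaling, the split over all chains was 1090 higher to 984 lower, and in these sets 20 to 7, 2 to 5 and 6 to 12. Tmsb4x-201, of the actin-binding thymosin beta-4, was found in CD8SP only at 1405 FPKM in CD8SP and 695.3 in CD4SP. Rplp1-201 of a ribosomal stalk protein was found in CD8SP only at 551.8 and 325.1 FPKM, and Rpl13a-201 of a ribosomal protein in CD4SP only, at 72.7 FPKM in CD8SP against 41.1 in CD4SP.

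Median gene FPKM was 18.4 over the 412 member genes measured in CD8SP and 13.9 over the 301 in CD4SP, against 11.8 and 10.1 over genes with any long-read isoform and 7.31 and 6.49 over other genes at 1 FPKM or more. The intron chain of a matched protein_coding reference was listed in short reads for 274 of 315 (87.0%) in CD8SP and 159 of 196 (81.1%) in CD4SP. Listed chains reached 1 FPKM in 246 and 140, and stood at 0 FPKM in 9 and 6. The gene reached 1 FPKM for 259 and 149 of the listed chains. They carried a median of 77.4% and 64.6% of the gene's FPKM. Chains of retained_intron references were listed for 18 of 116 in CD8SP and 14 of 119 in CD4SP, at medians of 9.28% and 13.4% of the gene's FPKM. Of these, 8 and 5 reached 1 FPKM.

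Members were counted in lists of genes. Of all 4310 genes with any long-read isoform in either library, 549 (12.7%) had a member. This share is to be set beside the list genes with any isoform, not beside the full lists. Of 14 genes of the T cell receptor complex and coreceptors, 13 had any long-read isoform and 8 a member: Cd3e in both libraries, Cd2, Cd3d and Cd8b1 in CD8SP only, and Cd27, Cd4, Cd5 and Ptprc in CD4SP only. Cd8b1-201, the beta chain of the cytotoxic coreceptor, had 6 exons and 1450 bases and ended 4 bases before the reference end, at a window of 90% A. Its chain stood at 464.2 FPKM in CD8SP and 25.6 in CD4SP. Cd4-201 had 10 exons and 3082 bases, 12 bases short at the 5′ and 14 at the 3′ end, and its chain stood at 0.87 FPKM in CD8SP and 107.1 in CD4SP. Of 25 genes of proximal T cell receptor signalling, 22 had any isoform and 8 a member. Lck-202, the kinase that starts the signal, had 13 exons in both, with 2088 bases in CD8SP and 2079 in CD4SP and the annotated frame of 509 codons. Zap70, the kinase that Lck activates, had the 2-exon model Zap70-203 in both, at 2320 bases in CD8SP and 2312 in CD4SP before windows of 65% A, and the coding Zap70-201 in CD4SP only.

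Of 14 genes of the CD4 lineage list 8 had any isoform and 5 a member, Tox in both and Cd4, Cd5, Icos and Itm2a in CD4SP only. Tox-201, a nuclear factor required for helper lineage development, had 2 members per library that stopped 961 and 1062 bases short of the reference end in CD8SP and 960 and 1094 in CD4SP. Itm2a-201 was at 15.6 FPKM in CD8SP and 148.1 in CD4SP. Of 18 genes of the CD8 lineage list 6 had any isoform and 3 a member: Runx3 in both, Cd8b1 in CD8SP only and Ccr9 in CD4SP only. Runx3-201, the transcription factor of cytotoxic fate, had members of 2871, 3209 and 3594 bases in CD8SP and 1 of 2842 in CD4SP, each with the annotated frame of 423 codons, and its chain stood at 6.42 FPKM in CD8SP and 1.53 in CD4SP. Ccr9-203, of a thymic homing receptor, ended 2836 bases short before a window of 80% A. Of 32 lymphoid transcription factors 24 had any isoform and 8 a member, Bcl11b, Fli1, Runx3 and Tcf7 in both and Elf1, Lef1, Satb1 and Stat3 in CD8SP only.

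Of 20 genes of mature thymocytes and egress 8 had any isoform and 5 a member, among them Arhgdib-201, with 1079 bases in CD8SP and 1131 in CD4SP. Gimap6 of the GTPase family of lymphocyte survival had Gimap6-201 with a frame of 305 codons in CD8SP and Gimap6-202 with a frame of 108 codons in CD4SP. In short reads the Gimap6-201 chain stood at 132.4 FPKM in CD8SP and 192.2 in CD4SP, and that of Gimap6-202 was listed in neither lineage. Of 18 genes of class I antigen presentation 10 had any isoform and 5 a member. H2-K1 had 3 members in each library, 2338, 2517 and 1994 bases long in CD8SP and 2340, 2522 and 1985 in CD4SP. Class I genes are near-identical copies in part, so their assignment is uncertain. Of 56 splicing factors 42 had any isoform and 8 a member, Mbnl1 and Tra2b in both and Hnrnpdl, Hnrnpk, Hnrnpl, Nono, Rbm25 and Srsf11 in CD8SP only. Splicing genes outside this list included Celf1, Puf60 and Rnps1 in CD4SP only, Srek1 in both, and Sfswap and Slu7 in CD8SP only.

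Over all genes with a member, 238 were found in CD8SP only, 126 in CD4SP only and 186 in both, which is the split to set beside those of the lists. Of 35 actin and motility genes 29 had any isoform and 9 a member, with Actb-201 at 1264 and 1886 bases in CD8SP and 1886 in CD4SP, the shorter before a window of 80% A. Of 35 translation factors 25 had any isoform and 10 a member, and Eef1a1-201 of elongation factor 1 alpha measured 1731 bases in CD8SP and 1563 in CD4SP. Of 37 proteasome subunits 14 had any isoform and 5 a member. Of 43 respiratory chain genes 17 had any isoform and 4 a member, Atp5a1, Atp5b, Cox4i1 and Uqcrc1, all in CD8SP only. The list is not complete: outside it Ndufb10 had a member in CD8SP only, Ndufb7 in CD4SP only and Ndufb11 in both. Of 25 genes of replication and cell cycle 14 had any isoform and 3 a member: Mcm3 and Mcm5 of the replicative helicase in CD8SP only and the cyclin gene Ccnd2 in CD4SP only. Gene FPKM of Mcm3 was 28.4 in CD8SP and 8.35 in CD4SP, and that of Mcm5 43.8 and 16.4. For Ccnd2 it was 60.8 in CD8SP and 23.2 in CD4SP, higher in the lineage where no member was found.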

How the data were processed

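Per the labels' protocols, long-read libraries were made by full-length cDNA amplification of total RNA and short-read libraries by ribosomal RNA depletion. The deposited isoform tables list length, exons, class, end distances, predicted frame and, as a percent, the A content of the genome just past the isoform end, as named in the file headers; read counts per isoform are empty. Short-read FPKM were written by Cufflinks (2.1.1) on GRCm38, per the submitters' processing notes, with lanes pooled. A deposited table of TPM for chained isoforms was not used. The tool that classed the long reads: not given in the sources used here.

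End distances were read as positive where the isoform is shorter, which the lengths bore out in 924 of 924. References were matched to GENCODE M21 by identifier (921 of 924, all with identical length), and isoform positions follow from its exons and the listed end distances. A reference's FPKM is that of the identical intron chain, and a gene's the sum over multi-exon transcripts that share introns with that gene alone. Shares were compared by 2-sided Fisher's exact tests with exact Clopper-Pearson intervals (Python 3.11.15, SciPy 1.17.1) and tested on simulated data. Of 14 shares between lineages 8 were added after the data were seen. FPKM ratios use a pseudocount of 0.1 and a minimum of 1 in either lineage, and understate changes of low genes; a value of 0 can be a failed estimate. Named genes were those of 14 lists, those with the most members, references, exons, length, end differences or FPKM, and the NMD calls of highest FPKM. The members and lists were chosen with earlier results of these data known. Some named items are not reported here.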

Additional observations from a re-analysis of the deposited data

How the results depend on the processing

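The window around the reference start was varied for the 5′ ends. The difference between lineages in the share of 5′ ends within it, CD8SP minus CD4SP, was -0.27 points at 50 bases. It was 1.04 at 10 and 1.49 at 100, none past the threshold. With protein_coding models alone the difference in coding share was -0.23 points against 3.72 in all, that in NMD calls 0.31 against -0.44, and that in 5′ ends near any start of the gene -4.41 against 0.83, the last -0.50 with 1 isoform per gene; none passed a test. Against incomplete matches, protein_coding members had fewer A-rich windows in CD8SP, a difference of -5.37 points (adjusted p = 0.0110, Fisher's exact test). Their coding share was higher by 13.7 points in CD8SP and 16.6 in CD4SP. In those comparisons only the members were restricted to protein_coding models. These models carry a reading frame, so the restriction fixed the coding difference in advance and nothing is concluded from it. Without the restriction it was 2.03 points in CD8SP and 0.94 in CD4SP. Scaling the short-read ratios to a median of 0 gave medians of -0.026 for references in both libraries, -0.013 for those of CD4SP only, -0.091 for genes in both and -0.073 for genes of CD4SP only. Without A-rich isoforms, genes with several references numbered 23 in CD8SP and 22 in CD4SP. The settings that name protein_coding models, 1 isoform per gene, genes with several references and gene-level ratios were chosen after seeing the data. No paired analysis was possible because each lineage has 1 long-read library and 1 pooled short-read value. The depth behind an isoform is unknown, so a reference found in 1 library cannot be called absent from the other lineage.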
